A study of Mus musculus with 8 samples.

Results

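Bile acids are made from cholesterol in hepatocytes, and the 10 genes described here encode enzymes of their synthesis and conjugation. They were chosen by gene symbol from the deposited table, Cyp7a1, Cyp8b1, Cyp27a1, Cyp7b1, Cyp39a1, Cyp2c70, Hsd3b7, Akr1d1, Baat and Slc27a5. All 10 were found, among 22013 genes in all, and all 10 passed the low-count filter. The study sequenced poly(A)-selected liver RNA of mice in 8 libraries, 4 titled crtl, called control here, and 4 titled Rem, called resmetirom. Resmetirom activates thyroid hormone receptor beta, the main form of this receptor in hepatocytes. The series describes mice with diet-induced steatohepatitis (a fatty liver with inflammation) that ate fructose, palmitate and cholesterol for 12 weeks and were injected intraperitoneally with resmetirom at 5 mg/kg/day for 8 weeks, beginning after week 4. The vehicle was carboxymethyl cellulose sodium at 0.5% with Tween-80 at 0.4%. The labels give neither diet nor vehicle for the control libraries, and give strain, sex, age and hour of collection for none, so a difference in any of these cannot be told apart from the drug. They also do not state that each library came from its own animal, so the p-values rest on a spread between libraries that may be technical.

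The classic arm of bile acid synthesis begins with Cyp7a1, the rate-limiting hydroxylase of cholesterol, and Cyp8b1 then decides how much of the product becomes cholic acid. The acidic arm begins with Cyp27a1, a mitochondrial hydroxylase of the sterol side chain, and passes its oxysterols to Cyp7b1. Another arm takes up 24-hydroxycholesterol, which is made largely in the brain by Cyp46a1, and Cyp39a1 hydroxylates it in the liver. All arms then share ring modification by Hsd3b7 and Akr1d1, and in rodents Cyp2c70 turns chenodeoxycholic acid into muricholic acids. Slc27a5 activates bile acids with coenzyme A, and Baat joins them to taurine or glycine. Bile acids themselves repress Cyp7a1 and Cyp8b1 through the receptor FXR (gene Nr1h4) and the corepressor SHP (gene Nr0b2).

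The controlling regions of Cyp8b1 and Akr1d1, both higher with resmetirom, and of Cyp2c70, the member with the lowest fitted difference, are shown because nuclear receptors are known to bind at such genes. Each line gives the 250 bases before the RefSeq start on build GRCm38.p6, 5′ to 3′ on the strand of the gene, and capitals mark matches to the motifs named next.
Cyp8b1 (chr9:121916306-121916555, minus strand): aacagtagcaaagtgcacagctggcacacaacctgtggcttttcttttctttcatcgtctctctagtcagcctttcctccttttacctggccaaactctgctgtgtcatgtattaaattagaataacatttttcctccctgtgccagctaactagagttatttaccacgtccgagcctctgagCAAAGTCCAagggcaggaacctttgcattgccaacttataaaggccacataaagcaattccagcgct
Cyp2c70 (chr19:40187287-40187536, minus strand): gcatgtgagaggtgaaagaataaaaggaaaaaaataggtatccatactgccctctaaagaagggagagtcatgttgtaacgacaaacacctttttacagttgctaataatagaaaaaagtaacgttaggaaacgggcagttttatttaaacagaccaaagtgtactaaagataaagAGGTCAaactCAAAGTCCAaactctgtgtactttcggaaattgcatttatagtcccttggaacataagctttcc
Akr1d1 (chr6:37529923-37530172, plus strand): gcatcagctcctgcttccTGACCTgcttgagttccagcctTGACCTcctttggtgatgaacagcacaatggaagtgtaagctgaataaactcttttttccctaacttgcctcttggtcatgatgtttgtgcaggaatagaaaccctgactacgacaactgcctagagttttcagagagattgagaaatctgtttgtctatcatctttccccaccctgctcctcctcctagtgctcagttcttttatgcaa

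Of the members, 5 had an entry in the RefSeq promoter table, and the other 2 of these, Cyp27a1 and Hsd3b7, held none of the 5 motifs searched on both strands. The motif CAAAGTCCA, a site of the hepatocyte factor HNF4, lay 67 to 59 bases before the start of Cyp8b1 and 64 to 56 bases before that of Cyp2c70, and 0.387% of 32536 promoter windows of this length hold it. The nuclear receptor half-site AGGTCA lay once in the Cyp2c70 window and at 2 places in that of Akr1d1, there on the opposite strand as TGACCT, and 14% of windows hold it. The other 3 motifs all contain the half-site and were in none of the 5 windows. They were CAAGGTCA (1.33% of windows), 2 half-sites in the same direction with any 4 bases between them (0.0154%) and 2 facing half-sites with any 1 base between them (0.00615%). A match is a run of letters and not a measured binding site.

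The deposited gene counts summed to 16787561 to 19887539 per library. Levels are CPM, counts relative to the library total, with trimmed-mean (TMM) scaling of the libraries, differences are log2 values of resmetirom minus control from edgeR's quasi-likelihood test, and called means a Benjamini-Hochberg adjusted p under 0.05 over 12207 tested genes. Resmetirom replicates 2 to 4 had TMM factors of 0.804 to 0.879 and the other 5 libraries of 1.06 to 1.16. Scaling thus matters for small differences and for whether groups overlap. The median difference of all tested genes was -0.0043, and -0.31 if libraries were scaled by their totals alone. Hepatocyte markers were abundant in every library, and the sum of the 7 found in the table was 72803 to 83072 CPM in control and 87914 to 96840 CPM in resmetirom libraries (exact permutation test, 2-sided p = 0.0286, the smallest that 4 against 4 allows). Most of this sum was Alb, with means of 58272 and 73186 CPM. Of the 7 markers, 5 had differences above 0, and Serpina1c (-0.61) and Ttr (-0.088) lay below 0. Tat, at 1.63, was the 1 marker called (edgeR adjusted p = 0.011). Sums of cholangiocyte, macrophage, stellate, endothelial, neutrophil and pancreas or gut markers overlapped between the groups (exact permutation p = 0.0857 to 0.914). The 7 lymphocyte markers summed to 2.77 to 6.32 and 6.39 to 14.5 CPM, and the 5 adipocyte markers, of which Adipoq, Lep and Retn had no counts in any library, to 0.273 to 1.68 and 0 CPM (exact permutation p = 0.0286 for each). The part of these sums in the results was not tested. In such bulk samples fewer cells of a type and less RNA per cell cannot be told apart.

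Resmetirom libraries held more RNA of Cyp39a1, Cyp8b1 and Akr1d1. Cyp39a1 stood at 2.5-fold, Cyp8b1 at 2.27-fold and Akr1d1 at 1.87-fold the control level, while in the acidic arm Cyp27a1 stood at 0.964-fold and Cyp7b1 at 1.66-fold, neither of them called. The called members were 3 of 10 higher and 0 lower, where 2.6% of all tested genes were called higher and 1.99% lower. At an unadjusted p under 0.05 no member was lower either. DESeq2 called 5 members higher and 0 lower, where it called 4.36% of all tested genes higher and 3.37% lower. For limma-voom these were 4 and 0 members, and 2.7% and 1.86% of all tested genes. In 7 of the 10, all 4 resmetirom libraries lay above all 4 control libraries with TMM scaling. This held for 6.32% of all tested genes. Scaled by library totals alone, Cyp8b1 and Cyp39a1 stayed apart, while Cyp7a1, Cyp7b1, Akr1d1, Hsd3b7 and Slc27a5 overlapped. Of these 7, Cyp39a1 alone stayed apart in TPM (levels corrected for gene length). Cyp2c70 and Baat separated in the other direction by library totals and in TPM, with every resmetirom library below every control library. Cyp27a1 did so in TPM. With library sizes only edgeR called 16.1% of all tested genes lower, and limma on log2(TPM + 1) called 38.1%. The median difference of the 10 was 0.52. Cyp39a1 was the 1 member called higher without control replicate 4, resmetirom replicate 1 or resmetirom replicate 4, where 1.47%, 2.31% and 1.68% of all tested genes were called higher. It was also the 1 member called higher with no low-count filter (1.94% of all genes). Without control replicate 1 there were 5 (2.54% of all genes), with Cyp7b1 and Hsd3b7 added.

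**Figure D1:**
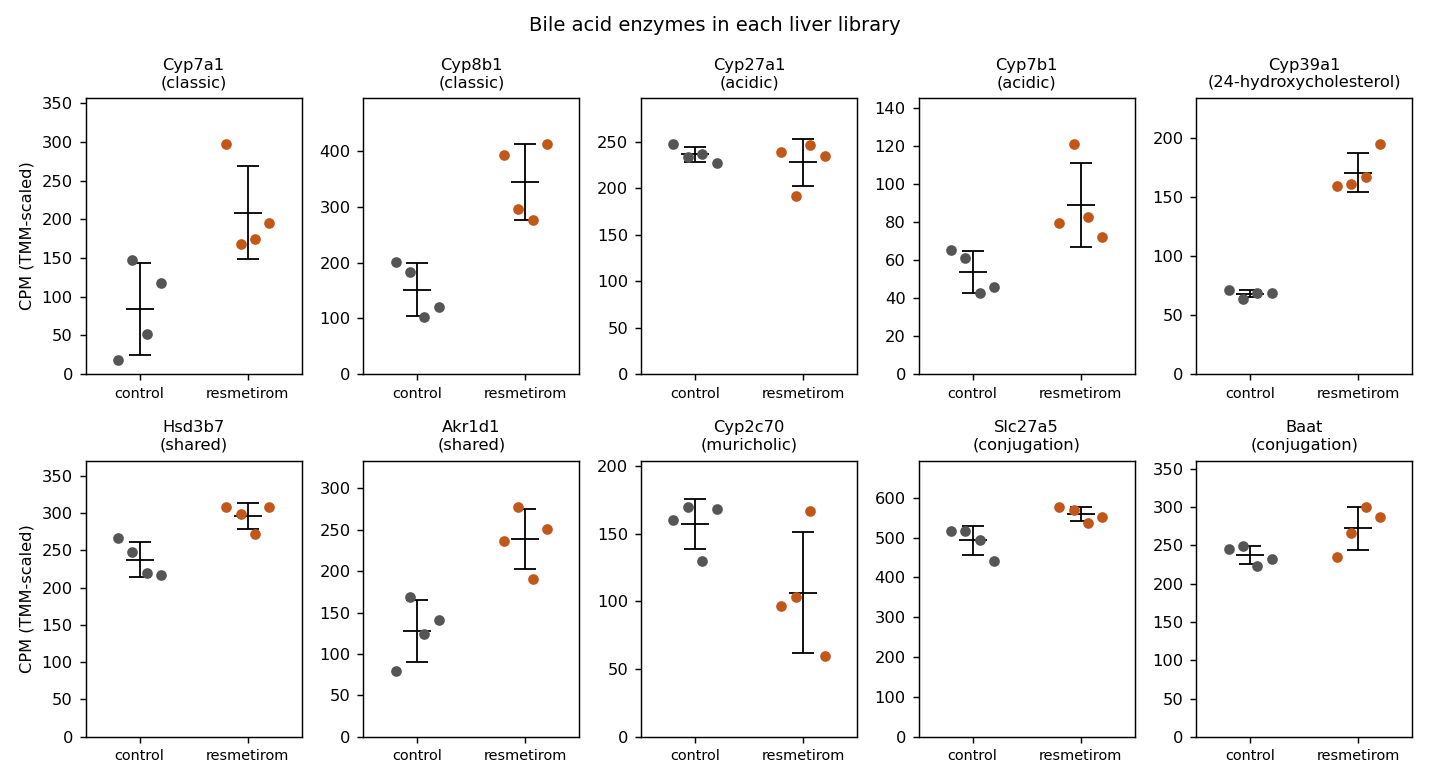
Level of each enzyme gene in CPM with TMM scaling, 1 point per library, with the mean and SD of the 4 control and the 4 resmetirom libraries. The groups of Cyp39a1 lie far apart with little spread, those of Cyp27a1 overlap, and the control points of Cyp7a1 run from 18.4 to 148 CPM.

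In the classic arm, Cyp7a1 (ENSMUSG00000028240, GRCm38 chromosome 4, 6265612 to 6275633) had the widest control spread of the members. Its control libraries 1 to 4 stood at 18.4, 148, 51.5 and 118 CPM and its resmetirom libraries at 297, 168, 174 and 195 CPM. With TMM scaling every resmetirom library was above every control library, but control replicate 2 came within a short distance of resmetirom replicate 2. Scaled by library totals alone, control replicate 2, at 159 CPM, was above resmetirom replicates 2 and 3, at 145 and 140 CPM. In TPM it stood at 64.1, above resmetirom replicates 2 to 4 at 50.3, 46.4 and 59.4. The control libraries differed 8.01-fold among themselves and the resmetirom libraries 1.77-fold. With 83.9 ± 59.4 and 208 ± 60.3 CPM (SD, n = 4 each) the difference was 1.31 (SE 0.63) and was not called (edgeR adjusted p = 0.357). Over 20 other settings of the analysis it stayed between 0.98 and 1.73 and was called in 0 of them (adjusted p = 0.106 to 0.565). The coefficient of variation of Cyp7a1 in the control libraries, 70.7%, was above that of 98.6% of tested genes.

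Cyp8b1 (ENSMUSG00000050445, GRCm38 chromosome 9, 121914356 to 121916305), the hydroxylase of the cholic acid branch, stood at 201, 183, 103 and 120 CPM in control libraries 1 to 4. Its resmetirom libraries stood at 394, 296, 277 and 413 CPM. The lowest resmetirom library was thus above the highest control library, with TMM scaling and by library totals but not in TPM. Cyp8b1 rose by 1.18 (SE 0.24, edgeR adjusted p = 0.0235), from 152 ± 47.6 to 345 ± 68.4 CPM (SD, n = 4 each). The call was lost when control replicate 4 (0.0737), resmetirom replicate 1 (0.067) or resmetirom replicate 4 (0.0702) was left out, and in the absence of a low-count filter (0.0502). It held in the other 16 of 20 settings, down to an adjusted p of 4.61e-06 with DESeq2.

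The 2 genes of the classic arm did not rank the control libraries alike. Control replicate 1 was the lowest of the 4 for Cyp7a1 and the highest for Cyp8b1, and control replicate 3 the lowest for Cyp8b1. The log2 ratio of Cyp8b1 to Cyp7a1 counts was 3.44, 0.31, 0.99 and 0.027 in control libraries 1 to 4 and 0.41, 0.82, 0.67 and 1.08 in the resmetirom libraries. The resmetirom values lay inside the range of the control values, and the mean difference of -0.45 turned to 0.3 without control replicate 1 (exact permutation test over all libraries, 2-sided p = 0.857, adjusted p = 0.857 over 5 ratios).

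Control replicate 1 also differed from the other control libraries in Nr0b2 and in clock genes, as the plot of Cyp7a1 beside them shows. Nr0b2, which encodes the corepressor SHP, was at 42.3, 14.5, 15.5 and 8.5 CPM in control libraries 1 to 4 and at 6.14, 6.75, 16 and 18.4 CPM in the resmetirom libraries. It was highest where Cyp7a1 was lowest, and its group difference of -0.78 (SE 0.61) was not called (edgeR adjusted p = 0.603). Cyp7a1 is a gene with a strong daily rhythm, and Dbp encodes a clock output factor known to drive it. Dbp, named like Bmal1 after its values were seen, was at 6.71, 53.3, 36.9 and 36.5 CPM in control libraries 1 to 4 and at 26, 36.8, 0.866 and 1.97 CPM in the resmetirom libraries. Bmal1, a core clock gene of nearly opposite phase, was at 16, 1.79, 2.64 and 3.66 and at 7.1, 3.96, 14.4 and 14.9 CPM. Control replicate 1 and resmetirom replicates 3 and 4 were thus low in Dbp and high in Bmal1, and the other 5 libraries were at 26 CPM or more of Dbp and 7.1 CPM or less of Bmal1. Cyp7a1 stood at 18.4 CPM in control replicate 1 and at 174 and 195 CPM in resmetirom replicates 3 and 4. Of 16 tested clock genes 0 were called by edgeR. Nr1d1 had the smallest p, at -0.72 (SE 0.19, adjusted p = 0.0542).

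**Figure D2:**
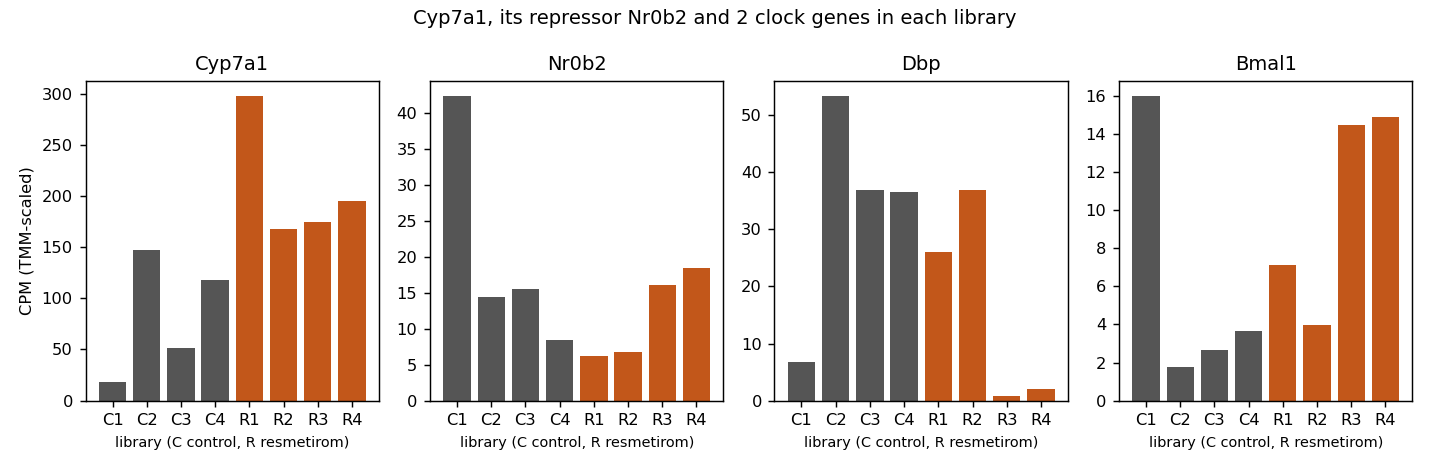
Levels of Cyp7a1, Nr0b2, Dbp and Bmal1 in CPM with TMM scaling, 1 bar per library (C1 to C4 control, R1 to R4 resmetirom). C1 has the lowest Cyp7a1 and the highest Nr0b2, and C1, R3 and R4 share low Dbp and high Bmal1.

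Without these 3 libraries, a setting chosen after the data were seen that leaves 3 control and 2 resmetirom libraries, 2 members were called higher by edgeR, Cyp39a1 at 1.25 (adjusted p = 6.28e-05) and Akr1d1 at 0.83 (adjusted p = 0.00892). Cyp8b1 was then at 1.35 (adjusted p = 0.0521) and Cyp7a1 at 1.14 (adjusted p = 0.498), and Cyp2c70 was called lower at -0.64 (adjusted p = 0.0289). In that fit 1.67% of all tested genes were called higher and 1.27% lower. The part of the hour of collection in the results was not tested.

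In the acidic arm, Cyp27a1 (ENSMUSG00000026170, GRCm38 chromosome 1, 74713574 to 74737892) had the lowest coefficient of variation of the members in the control libraries, 3.55%. It stood at 248, 234, 237 and 228 CPM in control libraries 1 to 4 and at 240, 191, 247 and 235 CPM in the resmetirom libraries. With TMM scaling the groups overlapped, with resmetirom replicate 2 below all others. In TPM every resmetirom library lay below every control library. The difference was -0.053 (SE 0.09, edgeR adjusted p = 0.839).

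Cyp7b1 (ENSMUSG00000039519, GRCm38 chromosome 3, 18071950 to 18243338), the oxysterol hydroxylase that follows it, stood at 65.1, 61.1, 42.7 and 45.9 CPM in the control and 79.6, 121, 82.8 and 72 CPM in the resmetirom libraries. With TMM scaling the groups did not overlap, and resmetirom replicate 2 was the highest library. The difference of 0.73 (SE 0.19) missed the threshold (edgeR adjusted p = 0.055). It passed in 4 of 20 other settings: DESeq2 gave an adjusted p of 0.00493, limma-voom of 0.0477, the replicate number as a block of 0.0245 (with 1.97% of all genes called higher) and leaving out control replicate 1 of 0.0459. The highest adjusted p over the 20 was 0.335. Cyp7b1 is known as a gene with more RNA in male than in female mouse liver. In the same libraries 5 of 10 tested male-biased genes were called lower and 0 higher, among them Cyp2d9, Mup20, Cyp4a12a and Cyp4a12b, while 7 of 9 tested female-biased genes were called higher and 0 lower. Cyp2d9 fell from 734 to 854 CPM in the control libraries to 91.5 to 143 CPM. The female-biased Cyp2a4 rose from 58.6 to 132 CPM to 851 to 1029 CPM. Sult2a1 went from at most 0.136 CPM to 420 to 1128 CPM, Sult2a2 from at most 0.14 CPM to 195 to 484 CPM, and Cyp3a44 from no counts to 22.9 to 48.9 CPM. Cyp7b1 was thus on the opposite side of 0 to the 10 male-biased genes, all of which had differences below 0. The other members were not compared with these genes, and the part of sex-biased expression in the results was not tested.

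In the arm of 24-hydroxycholesterol, Cyp39a1 (ENSMUSG00000023963, GRCm38 chromosome 17, 43667425 to 43751431) had the smallest p of the members. It stood at 71.3, 63.8, 68.6 and 69 CPM in control libraries 1 to 4 and at 159, 161, 167 and 195 CPM in the resmetirom libraries. The groups were far apart, and the highest library was 1.12-fold the lowest in control and 1.22-fold in resmetirom. Cyp39a1 rose by 1.32 (SE 0.09, edgeR adjusted p = 9.15e-06), from 68.2 ± 3.14 to 170 ± 16.6 CPM (SD, n = 4 each). Its p was number 7 in order among the 12207 tested genes. It was called in all 20 other settings, with differences from 0.83 to 1.35. Cyp46a1, which makes the substrate of Cyp39a1 elsewhere in the body, was at 1.3 to 2.37 CPM in the control and 0.395 to 1.04 CPM in the resmetirom libraries. These low levels did not overlap, and the difference of -1.29 (SE 0.40), below 0 where that of Cyp39a1 was above, was not called (edgeR adjusted p = 0.0952).

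Ratios between enzymes within a library do not depend on how libraries are scaled. Each compares the RNA of 2 genes and does not measure the use of an arm. Of the 5 ratios tested, 3 separated the groups fully, each with a 2-sided exact permutation p of 0.0286, the smallest possible, and an adjusted p of 0.0476 over the 5. At this smallest p the adjusted value depends on how many of the 5 separate. All 3 contain Cyp27a1, whose own difference was -0.053, so they largely repeat the difference of the other gene in each. The log2 ratio of Cyp27a1 to Cyp39a1 counts was 1.8, 1.87, 1.79 and 1.72 in control libraries 1 to 4 and 0.59, 0.25, 0.57 and 0.27 in the resmetirom libraries. The acidic entry enzyme thus fell against Cyp39a1 by 1.38, in 4 of 4 resmetirom libraries.

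The ratio of Cyp7a1 to Cyp27a1, the entries of the classic and acidic arms, was -3.75, -0.66, -2.2 and -0.95 in the control libraries. In the resmetirom libraries it was 0.31, -0.19, -0.5 and -0.27. The shift towards Cyp7a1 was 1.73, and 1.11 without control replicate 1, which alone moved it by over 1.5 times. Within the acidic arm the ratio of Cyp7b1 to Cyp27a1 was -1.93, -1.94, -2.47 and -2.31 in the control and -1.59, -0.66, -1.57 and -1.71 in the resmetirom libraries, a shift of 0.78.

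The ratio of Cyp7a1 to Cyp39a1 did not separate the groups. It ranged from -1.95 to 1.21 in control and from -0.0005 to 0.9 in resmetirom libraries, a mean difference of 0.35 (exact permutation p = 0.686, adjusted p = 0.857). It turned to -0.27 without control replicate 1. This spread is too wide to show that the 2 genes moved alike. With 1 library left out the smallest possible p is 0.0571, so these ratios have no call without a library.

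**Figure D3:**
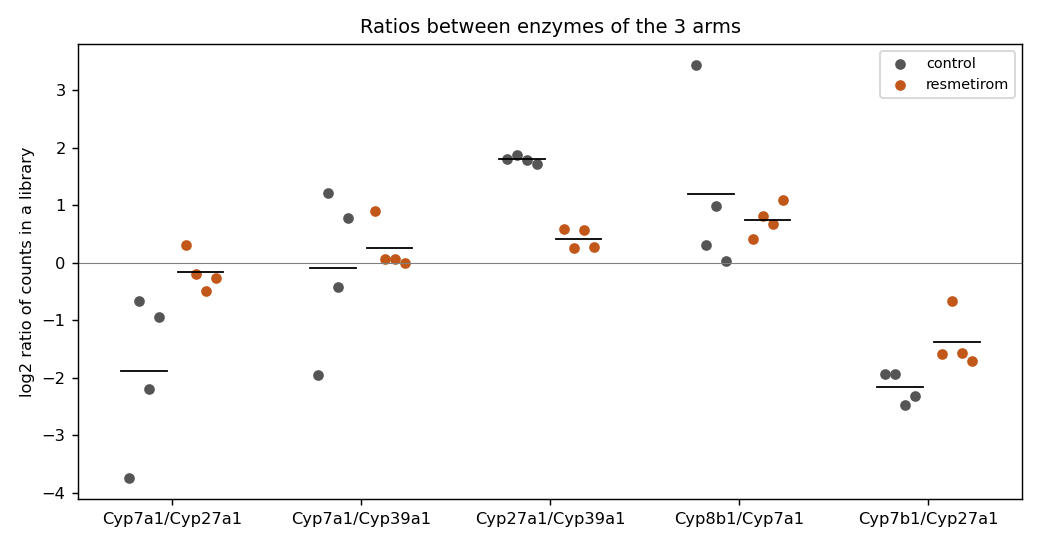
Log2 ratio of the counts of 2 enzymes within each library, 1 point per library, with black bars at the group means. The groups are apart for Cyp7a1/Cyp27a1, Cyp27a1/Cyp39a1 and Cyp7b1/Cyp27a1 and overlap for Cyp7a1/Cyp39a1 and Cyp8b1/Cyp7a1.

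Of the ring-modifying enzymes shared by the arms, Akr1d1 (ENSMUSG00000038641, GRCm38 chromosome 6, 37530173 to 37568815), the reductase that bends the steroid ring, was at 79, 169, 124 and 141 CPM in control libraries 1 to 4. It was at 237, 278, 190 and 251 CPM in the resmetirom libraries, all above the control libraries with TMM scaling but not by library totals alone. Akr1d1 rose by 0.90 (SE 0.21, edgeR adjusted p = 0.0487), from 128 ± 37.5 to 239 ± 36.7 CPM (SD, n = 4 each). This call lay at the threshold and was made in 10 of 20 other settings. Leaving out any 1 of control replicates 3 and 4 and resmetirom replicates 1, 2 and 4 ended it (adjusted p = 0.102 to 0.133), and it was also lost under library sizes only (0.0978), upper-quartile factors (0.0551), no low-count filter (0.079) and both TPM scales (0.167 and 0.168). The control libraries came in the same order for Akr1d1 as for Cyp7a1, replicates 1, 3, 4 and 2 from low to high.

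Hsd3b7 (ENSMUSG00000042289, GRCm38 chromosome 7, 127800604 to 127803802), the dehydrogenase of the sterol ring, was at 266, 247, 219 and 217 CPM in the control and 308, 298, 271 and 308 CPM in the resmetirom libraries. With TMM scaling the groups did not overlap, but control replicate 1 came close to resmetirom replicate 3. The difference of 0.32 (SE 0.09) was not called (edgeR adjusted p = 0.0738), though it passed with DESeq2 (adjusted p = 0.0312) and without control replicate 1 (adjusted p = 0.0426). Its log2(TPM + 1) difference was -0.16 (limma adjusted p = 0.42). Its value is also uncertain because the annotated gene Gm49388 shares 62% of the exonic bases of Hsd3b7 on the same strand, and an opposite-strand gene 62.4%. The sources used here do not say how reads were split between them. Gm49388 held 0 to 4.27 CPM.

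Cyp2c70 (ENSMUSG00000060613, GRCm38 chromosome 19, 40153353 to 40187333), the enzyme of muricholic acid synthesis, was the member with the lowest difference. It was at 160, 170, 130 and 168 CPM in control libraries 1 to 4 and at 96.7, 103, 167 and 59.4 CPM in the resmetirom libraries. With TMM scaling 3 of the 4 resmetirom libraries lay below all control libraries, and resmetirom replicate 3 lay among them. By library totals and in TPM all 4 lay below all control libraries. Resmetirom replicate 3, the highest of the 4, was then at 134 CPM and 113 TPM. Control replicate 3, the lowest control library, was at 148 CPM and 165 TPM. The difference of -0.56 (SE 0.28) was not called (edgeR adjusted p = 0.353). Leaving out resmetirom replicate 3 made it -0.86 and called (0.0271), with 1.91% of all tested genes called lower, and leaving out resmetirom replicate 4 made it -0.36 (0.456). With library sizes only it was -0.89 (adjusted p = 0.0332), where 16.1% of all tested genes were called lower. The log2(TPM + 1) scale gave -1.19 (limma adjusted p = 0.0052), where 38.1% of all tested genes were called lower.

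The conjugating enzymes had small differences whose sign depended on the scaling. Slc27a5 (ENSMUSG00000030382, GRCm38 chromosome 7, 12988346 to 12998192), the coenzyme A ligase, was at 517, 517, 494 and 442 CPM in the control and 577, 569, 537 and 552 CPM in the resmetirom libraries. With TMM scaling the groups were apart by a small margin, with a difference of 0.18 (SE 0.08, edgeR adjusted p = 0.274). Baat (ENSMUSG00000039653, GRCm38 chromosome 4, 49489422 to 49506557), the transferase to amino acids, was at 245, 250, 224 and 233 and at 235, 267, 301 and 287 CPM. With TMM scaling its groups overlapped, with a difference of 0.19 (SE 0.09, edgeR adjusted p = 0.304). By library totals and in TPM every resmetirom library of Baat lay below every control library. With library sizes only, Slc27a5 and Baat were both at -0.12, and in log2(TPM + 1) Slc27a5 was at -0.33 and Baat at -0.32.

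**Figure D4:**
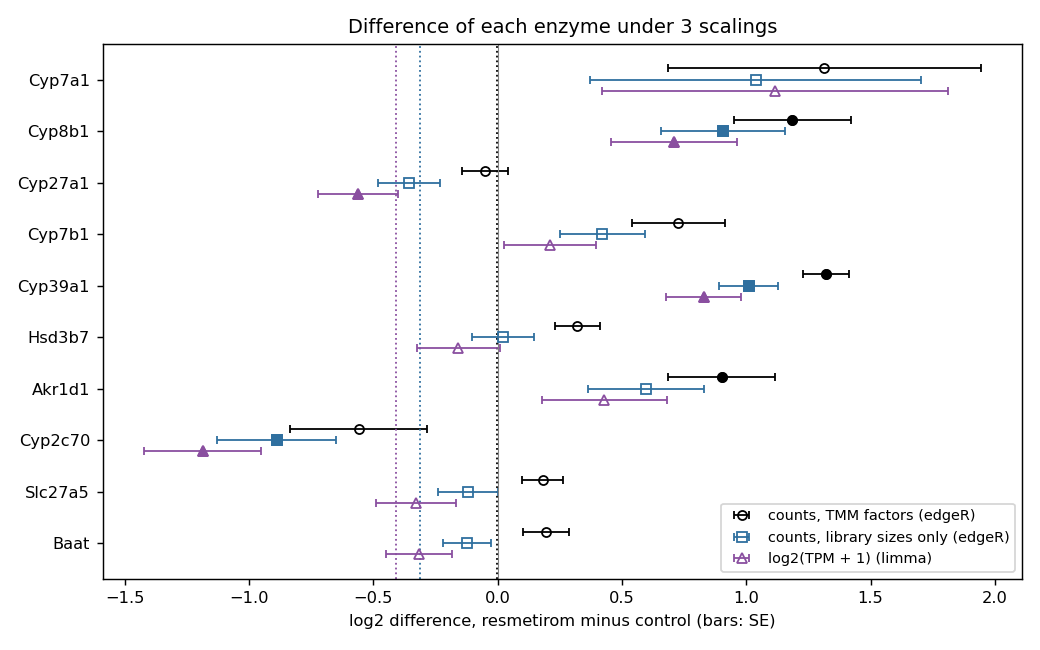
Log2 difference of each enzyme, resmetirom minus control, with SE, under TMM factors, library sizes only and log2(TPM + 1); filled symbols passed an adjusted p of 0.05 and dotted lines mark the median of all tested genes. Cyp39a1 and Cyp8b1 are filled under all 3, while Hsd3b7, Slc27a5 and Baat lie on both sides of 0.

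The authors' deposited table gives other calls for several members, from a test that its header does not name. It lists Cyp39a1 at a log2 fold change of 0.85 (false discovery rate 1.29e-13) and Cyp8b1 at 0.73 (0.00421) as higher. The authors' deposited table also lists Cyp2c70 at -1.12 (false discovery rate 0.000417), Cyp27a1 at -0.54 (0.00231) and Baat at -0.31 (0.0335) as lower. Of the genes with counts, 1.19% were higher and 32.4% lower in the authors' deposited table at a rate under 0.05, so lower values are common in it. For the members, the authors' log2 fold changes are those of the group means of TPM, so they carry the TPM scaling. They come from the same libraries and are not a separate source. The direction for Cyp39a1 and Cyp8b1 is the same as in the edgeR fit. The authors' deposited table gives Akr1d1 at 0.41 (false discovery rate 0.0529) and Cyp7a1 at 0.87 (0.248).

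Levels of different genes were compared per length, in TPM (transcripts, corrected for gene length, relative to the library total). In the control libraries Slc27a5 had the highest level, 425 ± 14.7 TPM (SD, n = 4), and Cyp7a1 the lowest, 37.8 ± 26.5 TPM. Between them came Hsd3b7 at 253, Cyp27a1 at 233, Baat at 228, Cyp2c70 at 183, Cyp8b1 at 144, Akr1d1 at 88.8, Cyp39a1 at 51.6 and Cyp7b1 at 45.9 TPM. The ranges of neighbours in this order over the 4 control libraries overlapped, except those of Slc27a5 and Hsd3b7 and those of Baat and Cyp2c70. In the resmetirom libraries Slc27a5 was again first, at 343 ± 74.5 TPM (SD, n = 4), with Cyp8b1 at 239 and Hsd3b7 at 231 TPM next. Baat stood at 184, Cyp27a1 at 160, Akr1d1 at 118, Cyp39a1 at 93.3, Cyp2c70 at 84, Cyp7a1 at 68.9 and Cyp7b1 at 54.1 TPM. Read within each library, Cyp8b1 was below Cyp27a1 in all 4 control libraries and above it in all 4 resmetirom libraries, and Cyp39a1 was below Cyp2c70 in all 4 control libraries and above it in 3 of 4 resmetirom libraries.

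The genes whose log2 CPM followed Cyp7a1 most closely over the 8 libraries, of 6996 genes with a mean of at least 10 CPM, were Acsl3 (Pearson r = 0.966), Sepsecs (r = 0.965) and Dhrs7 (r = 0.962). Each of them was lowest in control replicate 1, as Cyp7a1 was. For Cyp7b1 they were Os9 (r = 0.986), Psma1 (r = 0.981) and Itih1 (r = 0.963). These values describe 8 points that share the group difference and the scaling, and they are the top of a long list.

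The other genes of the pathway were counted by their role. Of 9 tested genes of side-chain oxidation, the peroxisomal steps that shorten the molecule, 1 was higher and 0 lower, with a median difference of 0.23. The gene was Abcd3, a peroxisomal carrier, which went from 503 to 596 CPM in the control to 733 to 953 CPM in the resmetirom libraries, a rise of 0.64 (SE 0.10, edgeR adjusted p = 0.00283) that was called in 17 of 20 other settings, not with library sizes only or on the TPM scales. Of 5 tested genes in the group plotted as other sterol hydroxylases, 0 were higher and 1 lower. The group also holds Hsd11b1 and Akr1c6, which encode reductases. The lower gene was Cyp3a11, which hydroxylates bile acids and drugs. It fell by 1.65 (SE 0.18, edgeR adjusted p = 0.000401), from 6635 to 11427 CPM to 2330 to 3551 CPM.

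Of 18 tested receptors and factors known to set these enzymes, 1 was higher and 0 lower, with a median of 0.069. Rxra, the partner of many nuclear receptors, was at 0.34 (SE 0.08, edgeR adjusted p = 0.0384), and this call was made in 8 of 20 other settings and lost when any single library was left out. The FXR gene Nr1h4 was at 0.068 (SE 0.13, adjusted p = 0.854), Nr5a2 at 0.083 (SE 0.10, adjusted p = 0.757), Hnf4a at 0.41 (SE 0.39, adjusted p = 0.684) and Fgfr4 at -0.027 (SE 0.17, adjusted p = 0.962), none of them called by edgeR. The oxysterol receptor LXR (genes Nr1h3 and Nr1h2) drives Cyp7a1 in mice. Of 9 tested LXR target genes other than Cyp7a1, 6 were lower and 0 higher, with a median of -1.19. These were the sterol exporters Abcg5, Abcg8, Abcg1 and Abca1, with Scd1 and Srebf1. All but Srebf1 were called in all 20 other settings, and Srebf1 (edgeR adjusted p = 0.0478) in 12. Abcg1 fell by 1.19 (SE 0.21, edgeR adjusted p = 0.0062), from 12.6 to 20.9 CPM to 4.81 to 8.57 CPM. The difference of Cyp7a1 was 1.31 (SE 0.63) and not called (edgeR adjusted p = 0.357). The part of LXR in the level of Cyp7a1 was not tested.

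Of 11 tested bile acid and phospholipid carriers, 3 were higher and 2 lower, with a median of 0.13, and 1 and 1 were without control replicate 4, resmetirom replicate 3 or resmetirom replicate 4. Slc10a1, which takes conjugated bile acids up from blood, was at 277, 405, 282 and 259 CPM in the control and 570, 667, 454 and 615 CPM in the resmetirom libraries. It rose by 0.92 (SE 0.16, edgeR adjusted p = 0.00629). Abcc3, which exports bile acids to blood, fell by 2.8 (SE 0.22, edgeR adjusted p = 0.000128), from 195 to 233 CPM to 17.8 to 41.3 CPM. Abcb4, the phospholipid exporter, was at 0.40 (SE 0.09, edgeR adjusted p = 0.0241) and Abcc4 at -0.99 (SE 0.22, edgeR adjusted p = 0.0261), and each of these was called in 13 of 20 other settings. Both calls were lost if control replicate 2, control replicate 4, resmetirom replicate 3 or resmetirom replicate 4 was left out, that of Abcc4 also if control replicate 3 or resmetirom replicate 2 was, and Abcb4 turned below 0 on both TPM scales. Slco1a4, at 0.78 (SE 0.19, edgeR adjusted p = 0.048), was the other carrier called higher, in 11 of 20 other settings. Its call was lost if any 1 of control replicates 3 and 4 and resmetirom replicates 2 to 4 was left out. The exporter of bile salts into bile, Abcb11, was at 0.34 (SE 0.11) and not called (edgeR adjusted p = 0.127). Slco1a1 had the largest difference of these carriers, -3.66 (SE 0.89), with means of 84.2 CPM in control and 6.71 CPM in resmetirom libraries. Its groups did not overlap, but it was not called (edgeR adjusted p = 0.084).

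**Figure D5:**
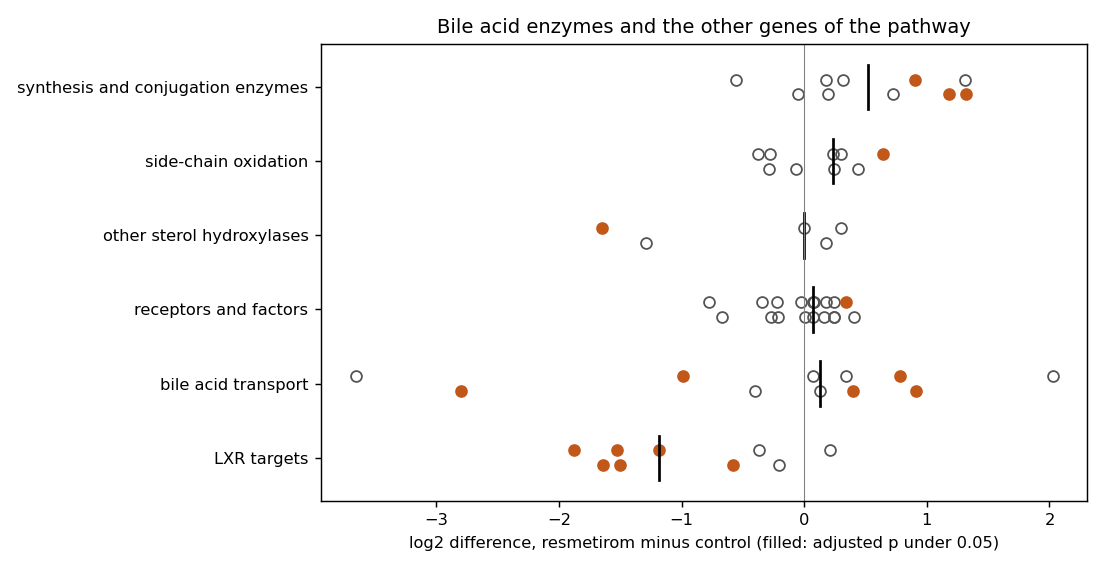
Log2 difference of each tested gene, resmetirom minus control, by group of the bile acid pathway; filled points passed an adjusted p of 0.05 and black bars mark the group medians. Calls among the enzymes lie above 0, those among LXR targets below 0, and those among carriers on both sides.

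Among genes of the liver zones, 3 of 11 tested pericentral genes were higher and 1 was lower, and of 9 tested periportal genes 1 was higher and 1 lower. Cyp7a1 is known as a pericentral gene. Cyp1a2 fell by 1.94 (SE 0.19, edgeR adjusted p = 0.000246) and Gulo rose by 0.79 (SE 0.12, edgeR adjusted p = 0.00227), and Glul, the marker next to the central vein, was at 0.096 (SE 0.11) and not called (edgeR adjusted p = 0.716). Lect2 rose by 0.74 (SE 0.13, edgeR adjusted p = 0.0064), and Lgr5, at 1.15 (SE 0.29, edgeR adjusted p = 0.0454), was called in 8 of 20 other settings. The periportal Cps1 rose by 0.76 (SE 0.15, edgeR adjusted p = 0.00988), and Hsd17b13 was at -0.53 (SE 0.12, edgeR adjusted p = 0.0297), a call made in 15 of 20 other settings and lost without control replicate 3, control replicate 4, resmetirom replicate 1 or resmetirom replicate 3.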

How the data were processed

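The authors' table gives a whole-number count for each gene in each library. The authors' TPM values are scaled by gene length and to a fixed total. Per the file headers, it also holds group means of TPM (a signal that was not used), the authors' log2 fold change, and a p-value with its adjusted form. Per the submitters' processing notes, the tools were StringTie 1.3.1, HISAT2 2.1.0, fastp 0.18.0, Bowtie2 2.2.8, edgeR, DESeq2 and RSEM, and the build mm10. Their roles, the strand setting and the treatment of shared reads were not stated there. The columns of all 8 libraries were matched by name.

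Counts were tested in edgeR 4.0.16 (R 4.3.3) with filterByExpr, TMM factors and robust quasi-likelihood fits over all genes. The SE is the difference divided by the square root of F. Ratios used counts + 0.5. Alternatives used DESeq2 1.42.0, limma 3.58.1, other factors and filters, log2(TPM + 1) and log2(TPM + 0.1), a replicate block and leaving out each library. Single values were compared by exact permutation in scipy 1.17.1. Each member held at least 396 counts in each library. When tested on simulated data for this comparison (12223 genes, of which 50 were changed at each size), 26% of 1.5-fold, 70% of 2-fold and 98% of 4-fold changes were recovered, with 7 false calls among 153. Libraries of 1 group differed by a chi-square per degree of freedom of 13.2 or more. Gene positions came from the GENCODE M21 annotation of GRCm38, which is mm10.

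The members and lists were chosen with earlier results of these data known. Genes named from the other lists were up to 4 called genes with the smallest p, or else the 1 gene with the smallest p; other names were added for their known role.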

Additional observations from a re-analysis of the deposited data

How the results depend on the processing

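Counts of all called genes, 317 higher and 243 lower, became 532 and 411 with DESeq2, 151 and 1961 under library sizes alone, 123 and 4648 on the log2(TPM + 1) scale and 122 and 4608 on the log2(TPM + 0.1) scale. They were 182 to 313 and 149 to 238 with 1 library left out, fewest without control replicate 4, and 210 and 160 without the 3 libraries lowest in Dbp. Enzymes called higher, 3, became 5 with DESeq2, 1 without a low-count filter and 1 to 5 with 1 library left out. Enzymes called lower, 0, became 1 (Cyp2c70) with library sizes only and without the 3 libraries lowest in Dbp, 2 (Cyp2c70 and Cyp27a1) on both TPM scales, and 0 to 1 with 1 library left out. The TPM scales and library sizes only also moved the median of all tested genes, to -0.41 on the log2(TPM + 1) and -0.5 on the log2(TPM + 0.1) scale.

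Signs turned for Cyp27a1 (-0.093 to 0.022 with 1 library left out, above 0 without resmetirom replicate 2), Hsd3b7 (-0.16 on both TPM scales), Slc27a5 (-0.12 with library sizes only, -0.33 on both TPM scales) and Baat (-0.12, and -0.32 on both TPM scales). With 1 library left out the ratio differences were 1.11 to 2.14 for Cyp7a1/Cyp27a1, -1.43 to -1.32 for Cyp27a1/Cyp39a1, 0.54 to 0.89 for Cyp7b1/Cyp27a1, -0.27 to 0.79 for Cyp7a1/Cyp39a1 and -0.84 to 0.30 for Cyp8b1/Cyp7a1. Without the 3 libraries lowest in Dbp they were 1.33, -1.38, 1.12, -0.045 and 0.17 in the same order. Neither design can reach the threshold.

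The replicate numbers did not pair the libraries: deviations of same-numbered libraries correlated at -0.325, 0.184, -0.186 and -0.0612. With the replicate block 240 genes were higher and 166 lower, and 4 enzymes higher and 0 lower, Cyp7b1 being added. The causes of these changes were not tested.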
